A study of Homo sapiens with 4 samples.

Results

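The 4 human HOX clusters were followed in H3K27ac HiChIP libraries of IMR90 cells, a line of human lung fibroblasts. Interactions were kept where an anchor overlapped, on hg19, HOXA at chr7:27130000-27250000, HOXB at chr17:46600000-46810000, HOXC at chr12:54330000-54450000 or HOXD at chr2:176955000-177055000. These windows were drawn for 39 HOX genes, 11 in HOXA, 10 in HOXB and 9 each in HOXC and HOXD. They caught 763 of 1330388 interactions over the 4 libraries. There were 190 in senescent shMETTL3, 241 in senescent shMETTL14, 212 in senescent shcontrol and 120 in control. HiChIP ligates neighbouring DNA ends in fixed nuclei and pulls down the joined pieces with an antibody, here one against acetylated lysine 27 of histone H3, a mark of active promoters and enhancers. A paired-end tag (PET) is 1 sequenced joint between a pair of such regions, called anchors.

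Each group was a single library. The senescent cells carried a hairpin against METTL3 (shMETTL3), a hairpin against METTL14 (shMETTL14) or a control hairpin (shcontrol). The control library has the genotype label WT, the treatment label control and no hairpin in its labels, so it may also differ from shcontrol in carrying none. Senescence, in which cells stop dividing for good, was brought on by an inducible fusion of the estrogen receptor with H-RAS G12V, and all cells were grown under low oxygen. The treatment protocol writes METTL4 where the genotype labels write METTL14, and the genotype labels were followed. METTL3 is the catalytic subunit and METTL14 its partner in the complex that writes N6-methyladenosine on RNA. The series title links METTL3 to chromatin contacts in senescence. The comparisons are therefore each knockdown against senescent shcontrol, the knockdowns against each other, and senescent shcontrol against control. The depletion of METTL3 or METTL14 and the cell type could not be read from these files, which hold no gene names.

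HOX genes encode homeodomain transcription factors that give cells their place along the body axis, and their order on the chromosome follows the order in which they act from head to tail. Genes with low numbers act in front, genes with high numbers behind. Fibroblasts in culture keep a HOX pattern that reflects the body site they came from. In the RefSeq gene table HOXA13 and HOXB13 lie at the high-coordinate ends of their clusters, whereas HOXC13 and HOXD13 lie at the low-coordinate ends of theirs. The next protein-coding gene is EVX1 beyond HOXA13 and TTLL6 beyond HOXB13, and SKAP2 and SKAP1 lie beyond the opposite, low-coordinate ends of HOXA and HOXB. The table is on GRCh38.p14 and the files are on hg19, so anchors were not assigned to genes and positions are given by cluster end.

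The promoters of 4 genes at or near cluster ends are shown, because the contacts described here were unevenly spread between those ends. HOXA2 stands for the contact-rich end of HOXA (chr7:27102684-27102933, minus strand) and HOXA13 for its end without anchors (chr7:27200092-27200341, minus strand). HOXB1 marks the end of HOXB next to its strongest contacts (chr17:48531012-48531261, minus strand). HOXD13 marks an end of the cluster with no anchor at all (chr2:176092471-176092720, plus strand). Each sequence is the 250 bases before the transcript start in RefSeq on GRCh38.p14, with CG in capitals.
HOXA2: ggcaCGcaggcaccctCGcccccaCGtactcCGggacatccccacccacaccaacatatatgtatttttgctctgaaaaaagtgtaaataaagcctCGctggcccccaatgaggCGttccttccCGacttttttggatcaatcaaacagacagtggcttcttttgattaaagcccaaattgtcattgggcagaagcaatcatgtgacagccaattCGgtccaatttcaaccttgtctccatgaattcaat
HOXA13: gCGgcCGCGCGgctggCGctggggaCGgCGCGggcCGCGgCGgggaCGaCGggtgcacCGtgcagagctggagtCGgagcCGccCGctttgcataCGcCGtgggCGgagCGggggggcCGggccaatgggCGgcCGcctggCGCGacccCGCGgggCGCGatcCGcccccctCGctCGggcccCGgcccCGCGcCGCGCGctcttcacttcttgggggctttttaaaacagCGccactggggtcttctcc
HOXB1: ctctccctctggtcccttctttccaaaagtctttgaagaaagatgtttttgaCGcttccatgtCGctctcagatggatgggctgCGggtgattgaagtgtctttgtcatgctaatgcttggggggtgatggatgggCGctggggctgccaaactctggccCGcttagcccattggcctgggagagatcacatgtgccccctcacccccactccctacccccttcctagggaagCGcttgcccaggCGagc
HOXD13: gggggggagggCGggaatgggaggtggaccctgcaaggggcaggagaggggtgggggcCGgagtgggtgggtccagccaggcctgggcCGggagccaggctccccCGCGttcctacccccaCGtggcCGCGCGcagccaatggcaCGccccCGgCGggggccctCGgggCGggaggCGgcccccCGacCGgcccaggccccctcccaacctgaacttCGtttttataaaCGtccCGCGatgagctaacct
The HOXA13 promoter holds 40 CG, HOXD13 21, HOXA2 8 and HOXB1 7, a motif that reads the same on both strands. Of all promoters listed by RefSeq, 93.9% hold at least 1 CG in this window, and the median is 11. At least 40 were present in 2.16% of promoters, and at least 21 in 30.2%. Of the 39 HOX genes, 20 matched the table, with 27 promoters whose median is 19 CG. The 4 shown do not stand for the rest of their clusters. The 16 HOXA promoters ranged from 0 to 40 CG with a median of 19, and HOXA4, HOXA6 and HOXA7 held 26, 27 and 28. The promoters were not set against contacts, since anchors were not assigned to genes.

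The libraries held 623930 PETs in shMETTL3, 936492 in shMETTL14, 552029 in shcontrol and 998378 in control, and values are given per 1000000 PETs of the library. Intervals are exact 95% intervals that cover counting error only, and PCR reads without molecular identifiers are not independent molecules. A ratio whose interval excludes 1 separates 2 libraries, and with 1 library per group it has no replicate check and gives no p-value. The 3 senescent libraries share 1 set of anchors and the control library has another, so the length covered by anchors is given beside each comparison with control. The count of PETs at an anchor can depend on how strongly it is acetylated as well as on how often it touches its partners, and fewer cells with a contact cannot be told apart from fewer contacts per cell.

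HOXB and HOXA carried nearly all contacts. HOXB had 664 PETs in shMETTL3, 860 in shMETTL14, 772 in shcontrol and 57 in control. Scaled to 1000000 PETs these are 1064 (985 to 1148), 918 (858 to 982), 1398 (1302 to 1501) and 57.1 (43.2 to 74.0). The senescent libraries thus stood far above the control library, counted on its own anchors, at HOXB, and shcontrol stood above both knockdowns. HOXA had 250 PETs in shMETTL3, 375 in shMETTL14, 354 in shcontrol and 564 in control. Scaled, these are 401 (353 to 454), 400.4 (361 to 443), 641 (576 to 712) and 565 (519 to 614). At HOXA the knockdowns were the lowest libraries and control lay near shcontrol. HOXC had 4, 3 and 1 PETs in shMETTL3, shMETTL14 and shcontrol and 3 in control. HOXD had none in any library.

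**Figure D1:**
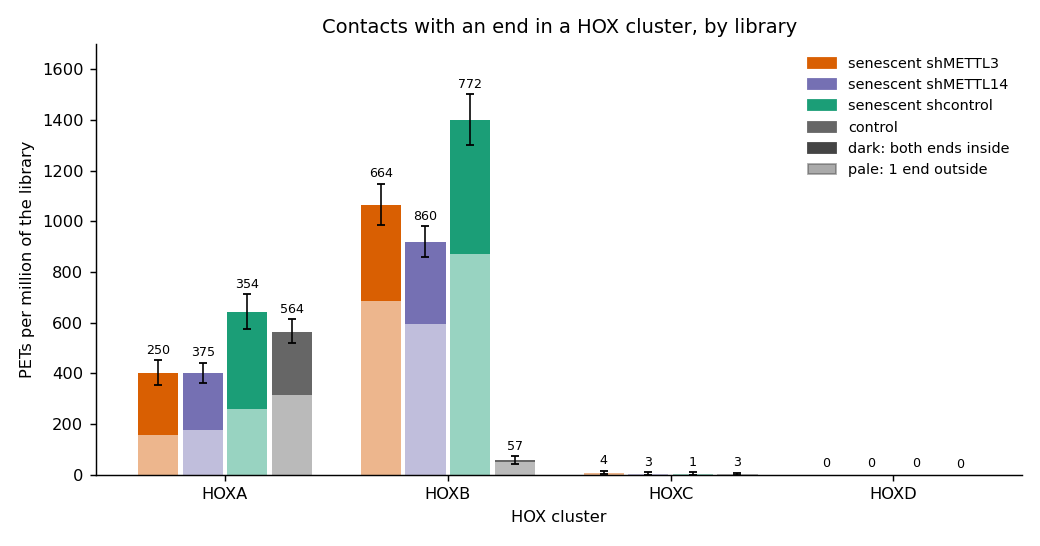
PETs per 1000000 with an end in each HOX cluster, by library (dark, both ends inside the window; pale, 1 end outside; bars on top, 95% counting intervals where there are PETs; digits, PET counts). HOXB is high in the 3 senescent libraries and at 57 PETs in control, HOXA is present in all 4, and HOXC and HOXD are near or at 0.

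Set against the genome, the PETs per 100 kb of the HOXB window were reached by 2.79%, 3.50% and 1.50% of 100-kb tiles with PETs in shMETTL3, shMETTL14 and shcontrol, and by 60.1% of those in control. HOXA was reached by 5.90%, 5.55% and 2.50% of tiles in the senescent libraries and by 2.94% in control. HOXA was thus among the contact-rich stretches in all 4 libraries, and HOXB in the 3 senescent ones. For HOXB in control the value covers listed PETs only. The control set has no anchor in the stretch that holds most HOXB contacts of the senescent libraries, as described below.

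Within both clusters, contacts lay on the side away from the HOX13 gene. Each window was cut into 4 equal segments numbered from its HOX13 end, the one with HOXA13 or HOXB13, and the opposite end, at the lower coordinate, is called the low end. Segment 1 held no PET end in any library at either cluster, and segment 2 of HOXB held none in the senescent libraries. Segments 3 and 4 of HOXA held 99.0%, 98.8% and 99.5% of PET ends in shMETTL3, shMETTL14 and shcontrol, and 99.3% in control. In HOXB, segment 3 held 59.5% of PET ends in shMETTL3, 57.1% in shMETTL14 and 59.4% in shcontrol, and segment 4, next to HOXB1, held the other 40.5%, 42.9% and 40.6%. In control, segment 3 held 83.1% (71.7 to 91.2) of 65 ends, segment 2 held 16.9% and segment 4 none. In HOXB the control set has no anchor in segment 4 and the senescent set has none in segment 2, so these empty segments follow from the anchor sets. The listed HOXB contacts of control lay closer to HOXB13 because its anchors do.

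In HOXA, 8 senescent anchors covered 42.6 kb, numbered here from the low end. Anchors 1 to 7 lay between chr7:27134796 and chr7:27186269, and anchor 8 (chr7:27204500-27207534), the nearest to HOXA13, had 4, 7 and 3 PETs in shMETTL3, shMETTL14 and shcontrol. Anchor 7 (chr7:27172110-27186269) was the widest at 14.2 kb and had the most PETs, with 108, 144 and 143. The control set covered the same end with 3 anchors over 66.8 kb. Its 2 wide anchors at chr7:27134281-27166350 and chr7:27167001-27197775 had 424 and 382 PETs, the most at any HOXA anchor. In HOXB, 4 senescent anchors covered 62.9 kb. Anchor 3 (chr17:46644106-46677291) had 462 PETs in shMETTL3, 565 in shMETTL14 and 536 in shcontrol. Anchor 1 (chr17:46615468-46636599), the nearest to HOXB1, had 288, 390 and 340. The 5 control anchors in HOXB covered 18.3 kb, and the largest count among them was 42 PETs, at chr17:46686165-46692508. Per covered kb and 1000000 PETs, HOXA had 9.41 in shMETTL3, 9.40 in shMETTL14, 15.1 in shcontrol and 8.45 in control. HOXB had 16.9, 14.6, 22.2 and 3.11 on the same scale.

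**Figure D2:**
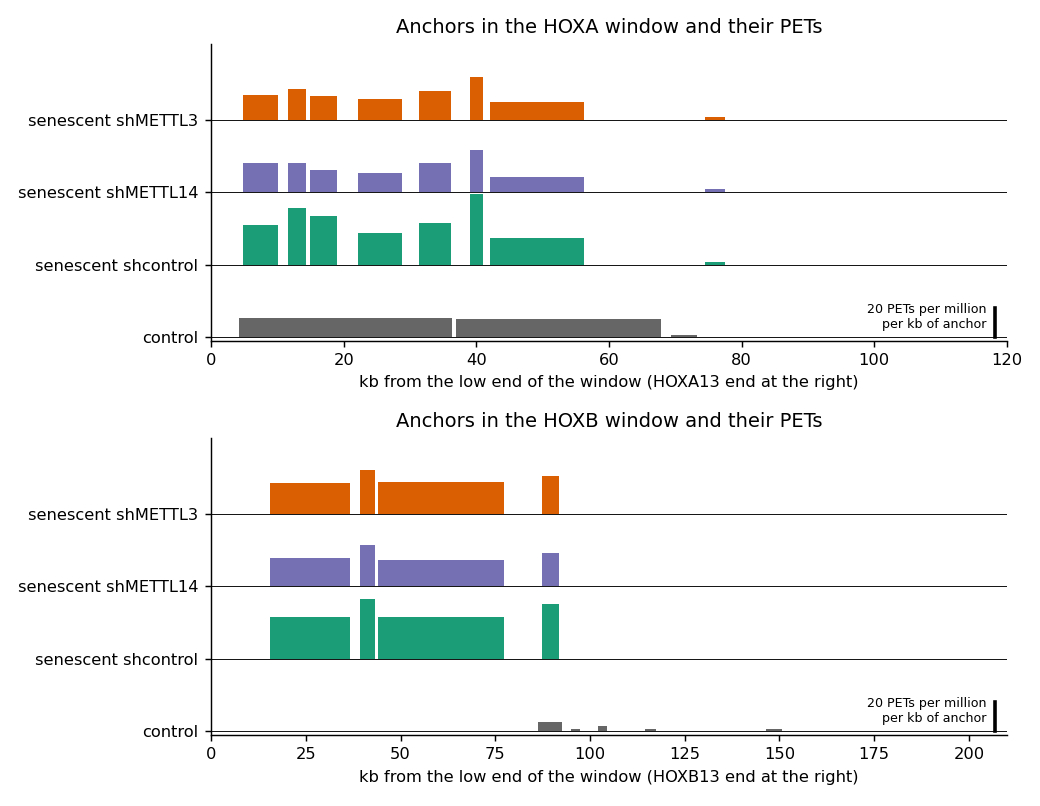
Anchors along the HOXA and HOXB windows in kb from the low end, 1 line per library; the height is PETs per 1000000 per kb of anchor, with a scale bar of 20. The right side of each window, towards HOX13, is empty or low in every library. In HOXB the first control anchor overlaps the last senescent one, and the other control anchors lie further towards HOXB13.

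In senescent shcontrol against control, HOXB had 24.5-fold the share of PETs (18.7 to 32.6; 772 against 57 PETs, with 62.9 kb covered in the senescent set and 18.3 kb in the control set). Per covered kb the ratio was 7.15 (5.46 to 9.53), and over interactions of at least 2 PETs it was 46.8 (32.3 to 70.4). Of 10319 tiles of 100 kb, 30 (0.291%) had a ratio as high as 24.5. A 2-fold higher share with an interval above 1 was met by 13.7% of tiles, so a high ratio alone was common in this comparison. Most HOXB contacts of the senescent libraries came from a stretch of 101 kb, chr17:46585032-46686164, in which the control set has no anchor. There 3 senescent anchors covered 58.3 kb and took part in 735 of the 772 HOXB PETs of shcontrol (95.2%), with 96.2% in shMETTL3 and 94.7% in shMETTL14. By covered length it ranked 13 of 10051 stretches that hold senescent anchors and no control anchor. The files list only pairs of called anchors, so PETs of the control library in that stretch were not counted and no fold is given for its anchors.

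Where both sets have an anchor, the HOXB difference was smaller. The 1 region of HOXB with anchors of both sets, chr17:46686165-46692508, had 95 PETs in shcontrol and 42 in control, a ratio of 4.09 (2.82 to 6.03). It has 4.53 kb covered in the senescent set and 6.34 kb in the control set. Of its 95 PETs, 51 and 7 joined HOXB anchors 3 and 1, which the control set lacks. The ratio of 4.09 thus rests in part on contacts that could not be listed in control. Counting only interactions with both ends in regions of both sets, the HOXB ratio was 1.55 (0.926 to 2.59). That ratio is scaled to the PETs of such interactions in each library, not to all PETs of the library. An anchor with the same ends in both sets lies 33.9 kb beyond the low end of HOXB, at chr17:46557990-46566149. To HOXB it had 115 PETs in shcontrol and 8 in control, a ratio of 26.0 (12.8 to 61.7). To all other places it had 111 PETs in shcontrol and 115 in control, a ratio of 1.75 (1.33 to 2.29). Of its PETs to HOXB in shcontrol, 63, 36 and 10 went to HOXB anchors 3, 1 and 2, which the control set lacks, and 6 went to anchor 4. No control PET could be listed for the anchors that the control set lacks. The ratio to HOXB, and its contrast with contacts elsewhere, were thus largely set by the anchor sets. The 1 Mb beyond the low end of HOXB, counted without contacts to the cluster, had a ratio of 1.29 (1.13 to 1.46; 154 kb covered in the senescent set and 184 kb in the control set). The 1 Mb beyond the HOXB13 end had 1.18 (1.03 to 1.35; 107 kb and 178 kb covered).

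HOXA had 354 PETs in shcontrol and 564 in control, a ratio of 1.14 whose interval (0.991 to 1.30) includes 1, with 42.6 kb covered in the senescent set and 66.8 kb in the control set. The median tile stood at 0.890. Contacts with both ends inside HOXA were higher in shcontrol (211 PETs) than in control (248 PETs), with a ratio of 1.54 (1.27 to 1.86). Contacts with 1 end outside had 143 PETs in shcontrol and 316 in control, a ratio of 0.818 (0.667 to 1.0003). The inside share was 59.6% (54.3 to 64.8) in shcontrol and 44.0% (39.8 to 48.2) in control, and for spans of at least 20 kb its direction turned, to 35.9% (29.6 to 42.5) in shcontrol and 43.6% (39.4 to 47.8) in control. The direction at HOXA depended on the measure, and the senescent set divides HOXA into 8 narrow anchors where the control set has 3, of which 2 are wide. Per covered kb the HOXA ratio was 1.78 (1.55 to 2.04), and for spans of at least 20 kb it was 0.744 (0.634 to 0.871). At HOXB the inside share was 37.7% (34.3 to 41.2) in shcontrol and 14.0% (6.26 to 25.8) in control. Every inside HOXB pair with PETs in shcontrol includes an anchor that the control set lacks, so this contrast is set by the anchor sets.

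Overlapping anchors of both sets were merged, and a region was called where it differed at least 2-fold with an interval that excludes 1, among regions with a joint count of at least 50 PETs. Of the 3 HOX regions with anchors of both sets, 1 was called higher in shcontrol than in control, against 15.3% of such regions. It is the HOXB region named above, whose count in shcontrol includes contacts to anchors that the control set lacks. The 3 HOXB anchors with no control counterpart pass the rule by construction, since no control PET could be listed for them. With them 4 of 6 HOX regions pass, where 15.6% of 16266 regions genome-wide do, and this count is set by the anchor sets. The 2 HOXA regions were at 1.21 (1.03 to 1.41) for chr7:27134281-27166350, with 23.5 kb covered in the senescent set and 32.1 kb in the control set, and 0.814 (0.676 to 0.977) for chr7:27167001-27197775, with 16.1 and 30.8 kb. Per covered kb both were above 1, at 1.65 (1.41 to 1.92) and 1.56 (1.30 to 1.87), so the direction of the second depended on the scaling.

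In the knockdowns both clusters took a smaller share of PETs than in senescent shcontrol, on the same anchors. The HOXA ratio to shcontrol was 0.625 (0.529 to 0.737) in shMETTL3 and 0.624 (0.539 to 0.724) in shMETTL14. The HOXB ratio was 0.761 (0.685 to 0.845) for shMETTL3 and 0.657 (0.595 to 0.725) for shMETTL14. Both knockdowns share the shcontrol library, so a low ratio in both is not a repeat, and shcontrol also enters the comparison with control. An interval below 1 was met by 10.6% of 8414 tiles for shMETTL3 and by 10.5% of 9700 tiles for shMETTL14. A ratio as low as that of HOXA was met by 5.49% of tiles for shMETTL3 and 4.08% for shMETTL14, and one as low as that of HOXB by 17.9% and 5.86%. The median tile stood at 0.963 and 0.998. Among called interactions alone the HOXA ratios were 0.342 (0.264 to 0.440) for shMETTL3 and 0.346 (0.278 to 0.430) for shMETTL14. Interactions were called within each library by their PETs and false discovery rate, so these ratios also reflect which ones passed there. They are scaled to the called PETs of each library, and are not read as a larger difference. The flanks were closer to shcontrol than the clusters: over 1 Mb beyond each end, without contacts to the cluster, HOXB had 0.936 and 0.868 in shMETTL3 and 0.922 and 0.882 in shMETTL14, listed with the low side first. The HOXA flanks had 0.735 and 1.03 in shMETTL3 and 0.816 and 1.01 in shMETTL14, with the low side first. All of these flank intervals include 1, and the difference between cluster and flank was not tested.

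The lower shares were spread over the anchors. Ratios over shcontrol were below 1 at 7 of 8 HOXA anchors in each knockdown and at all 4 HOXB anchors. The exception was HOXA anchor 8, with 4 and 7 PETs in shMETTL3 and shMETTL14 and 3 in shcontrol. The lowest was HOXA anchor 3 (chr7:27144981-27149011) with 41 PETs in shMETTL3, 58 in shMETTL14 and 74 in shcontrol, ratios of 0.490 (0.326 to 0.727) and 0.462 (0.322 to 0.660). Anchor 2 (chr7:27141546-27144302) followed with 37, 53 and 60 PETs and ratios of 0.546 and 0.521. Anchor 6 (chr7:27169063-27170964) had 0.607 in shMETTL3 and 0.601 in shMETTL14, anchor 7 had 0.668 and 0.594, and anchor 4 (chr7:27152135-27158744) had 0.672 and 0.604. Anchor 5 (chr7:27161423-27166249) had 0.698 in both, and anchor 1 (chr7:27134796-27140070) had 0.638 and 0.739, where the interval of shMETTL14 reaches 1.01. The intervals of these HOXA anchors overlap one another, so no order among them holds against counting error. HOXB anchor 4 (chr17:46687232-46691762) had 0.689 in shMETTL3 and 0.614 in shMETTL14, anchor 1 had 0.749 and 0.676, and anchor 3 had 0.763 and 0.621. HOXB anchor 2 (chr17:46639238-46643265) had 0.741, with an interval up to 1.01, and 0.698. In merged regions with at least 50 PETs, intervals lay below 1 at 5 of 6 HOX regions for shMETTL3 and 6 of 6 for shMETTL14, where 8.16% and 9.40% of all regions had one. Since the regions of a cluster share PETs, they are not independent. None of the 6 was at least 2-fold lower in either knockdown, where 1.32% and 1.37% of all regions were.

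**Figure D3:**
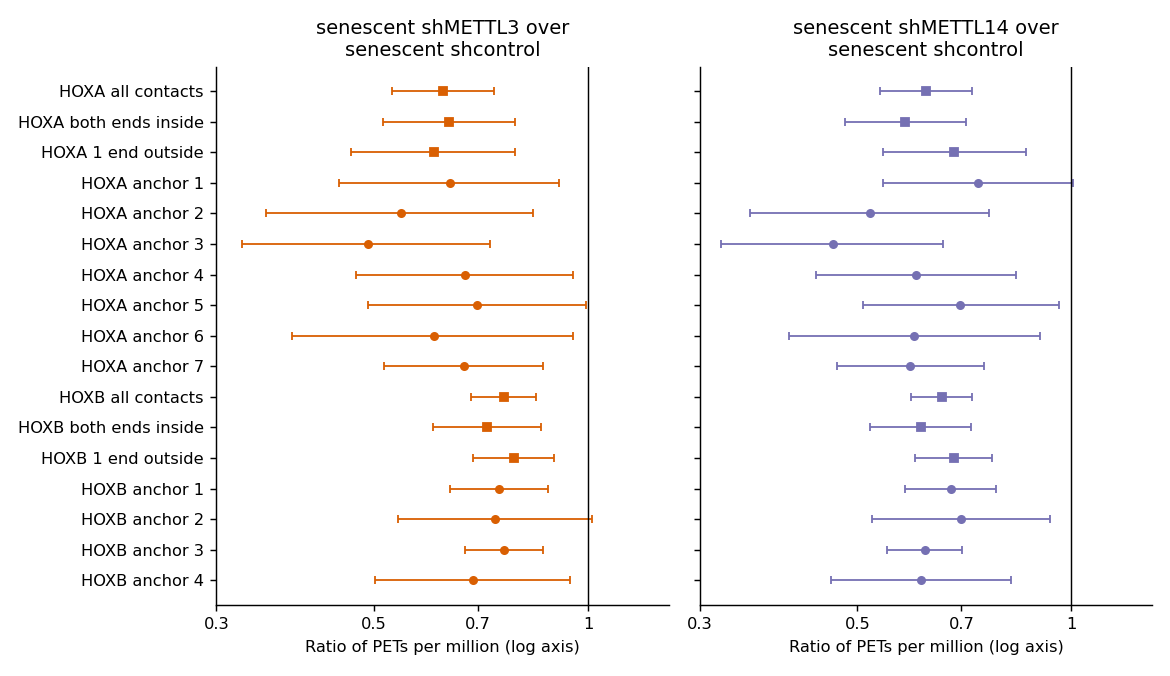
Ratio of PETs per 1000000 of each knockdown over senescent shcontrol (log axis), with 95% counting intervals, for each cluster (squares) and each anchor with over 30 PETs in every senescent library (circles). All points lie below 1, and the intervals of HOXA anchor 1 in shMETTL14 and HOXB anchor 2 in shMETTL3 cross it.

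Between the knockdowns, HOXA had 400.4 per 1000000 PETs in shMETTL14 and 401 in shMETTL3, a ratio of 0.999 (0.849 to 1.18). This interval leaves room for differences of up to about its bounds in either direction. HOXB was lower in shMETTL14 than in shMETTL3, with a ratio of 0.863 (0.779 to 0.956). An interval below 1 was met by 8.66% of 9765 tiles in that comparison. Inside contacts had 303 PETs in shMETTL14 and 237 in shMETTL3, a ratio of 0.852 (0.716 to 1.01), and the pair of anchors 1 and 3 had 163 and 138, a ratio of 0.787 (0.623 to 0.994). Outside contacts of under 200 kb had 294 PETs in shMETTL14 and 260 in shMETTL3, a ratio of 0.753 (0.635 to 0.894). Those of 200 kb or more had 263 and 167, a ratio of 1.05 (0.861 to 1.28). These 2 intervals overlap. Of the HOXB anchors, anchor 3 had an interval below 1 for shMETTL14 over shMETTL3 (0.815, 0.719 to 0.923) and the other 3 had intervals that include 1. Of the 6 merged regions 1 had an interval below 1, where 8.89% of all regions did.

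Inside HOXA the senescent anchors formed a mesh of contacts rather than 1 pair. Of the pairs among its 8 anchors, 23 had PETs in shMETTL3, 22 in shMETTL14 and 21 in shcontrol. Anchor 7 took part in 42.8% (34.8 to 51.0) of inside PETs in shMETTL3, 44.0% (37.2 to 51.0) in shMETTL14 and 47.9% (41.0 to 54.8) in shcontrol. The pair of anchors 5 and 7, 15.4 kb apart, had 15, 32 and 18 PETs, or 24.0, 34.2 and 32.6 per 1000000. The pair of anchors 6 and 7, 9.18 kb apart, had 9, 14 and 22 PETs, with ratios over shcontrol of 0.362 (0.147 to 0.818) in shMETTL3 and 0.375 (0.177 to 0.767) in shMETTL14. The pair 6 and 7 was thus low in both knockdowns. The pair 5 and 7 had ratios of 0.737 (0.346 to 1.55) and 1.05 (0.571 to 1.98), which its counts do not separate from 1. Pairs with fewer PETs per 1000000 than shcontrol numbered 17 of 24 in shMETTL3 and 18 of 23 in shMETTL14. Their intervals lay below 1 at only 3 and 5 pairs, and no pair had an interval above 1. No share over all pairs of the genome is given beside these counts, and the pairs share anchors. The counts are therefore not read as a trait of HOXA. In control, the 2 wide anchors of HOXA formed 1 pair of 243 PETs, 32.1 kb apart. Contacts within a wide anchor could not be listed, so the difference in the number of pairs follows from the anchor sets.

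Inside HOXB, the pair of anchors 1 and 3, 34.7 kb apart, dominated. It had 138 PETs in shMETTL3, 163 in shMETTL14 and 162 in shcontrol, or 221, 174 and 293 per 1000000. The ratios over shcontrol were 0.754 (0.596 to 0.952) and 0.593 (0.474 to 0.742). Anchors 3 and 4 had 40, 44 and 51 PETs, with ratios of 0.694 (0.447 to 1.07) and 0.509 (0.332 to 0.776). Anchors 2 and 3 had 32, 55 and 39 PETs, with ratios of 0.726 (0.440 to 1.19) and 0.831 (0.542 to 1.29). Anchor 3 took part in 88.6%, 86.5% and 86.6% of the inside PETs of shMETTL3, shMETTL14 and shcontrol, and covers 33.2 of 62.9 kb. In control the inside pairs of HOXB held 8 PETs in all.

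**Figure D4:**
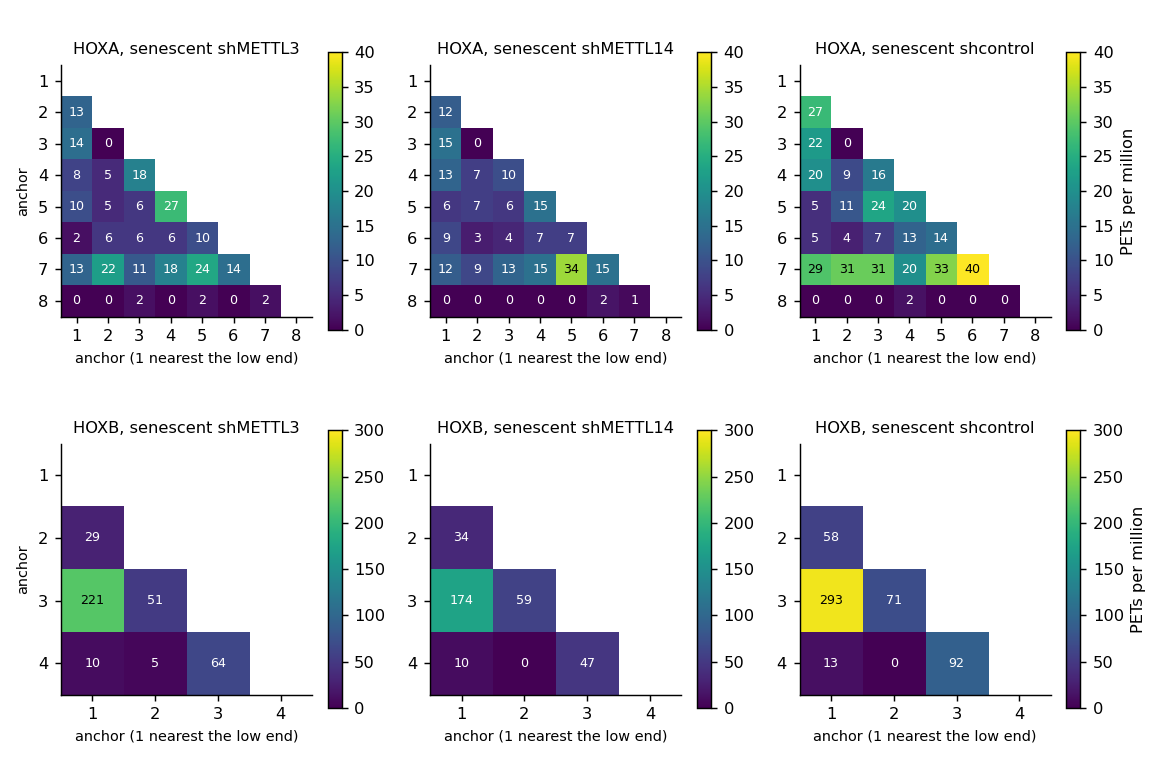
PETs per 1000000 joining each pair of senescent anchors inside HOXA (top) and HOXB (bottom), numbered from the low end; each column of panels is 1 library, and colour scales differ between the clusters. HOXA anchors 2 and 3 lie 4.07 kb apart, under the shortest listed span, so their cell is at 0. HOXA contacts are spread over anchors 1 to 7, and HOXB contacts gather on anchors 1 and 3.

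The share of contacts that stayed inside a cluster could not be told apart between the senescent libraries at this depth. It was 60.8% (54.4 to 66.9) in shMETTL3, 55.7% (50.5 to 60.8) in shMETTL14 and 59.6% (54.3 to 64.8) in shcontrol at HOXA. At HOXB it was 35.7% (32.0 to 39.5), 35.2% (32.0 to 38.5) and 37.7% (34.3 to 41.2). The odds ratios of inside to outside contacts over shcontrol were 1.05 (0.745 to 1.48) and 0.853 (0.629 to 1.16) at HOXA and 0.917 (0.735 to 1.14) and 0.899 (0.731 to 1.11) at HOXB. Inside and outside contacts were both lower in the knockdowns. At HOXA the inside ratios over shcontrol were 0.637 (0.514 to 0.789) in shMETTL3 and 0.584 (0.480 to 0.710) in shMETTL14, and the outside ratios 0.606 (0.464 to 0.790) and 0.684 (0.544 to 0.862). At HOXB the inside ratios were 0.721 (0.604 to 0.858) and 0.614 (0.521 to 0.723), and the outside ratios 0.785 (0.688 to 0.897) and 0.683 (0.603 to 0.773).

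Contacts that left a cluster mostly ran past its low end. At HOXA 79.6% (70.3 to 87.1) of outside PETs did so in shMETTL3, 73.5% (66.1 to 80.0) in shMETTL14, 79.0% (71.4 to 85.4) in shcontrol and 75.0% (69.8 to 79.7) in control. At HOXB the shares were 88.8% (85.4 to 91.6), 86.5% (83.4 to 89.3), 87.3% (84.0 to 90.2) and 73.5% (58.9 to 85.1). In the knockdowns, contacts past the low end had ratios over shcontrol of 0.611 (0.452 to 0.822) in shMETTL3 and 0.636 (0.489 to 0.829) in shMETTL14 at HOXA. At HOXB these were 0.798 (0.693 to 0.920) and 0.676 (0.592 to 0.773). Past the HOX13 end the ratios were 0.590 and 0.865 at HOXA and 0.696 and 0.725 at HOXB, each with an interval that includes 1. The clusters differed in reach. The median outside span at HOXA was 412 kb in each senescent library and 496 kb in control. At HOXB it was 98.6 kb in shMETTL3, 117 kb in shMETTL14, 117 kb in shcontrol and 301 kb in control.

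The strongest partners of HOXA lay 223 to 402 kb beyond its low end and are present in both anchor sets. The region chr7:26894691-26899862 had 5, 13 and 15 PETs to HOXA in shMETTL3, shMETTL14 and shcontrol, and 53 in control. The region chr7:26902377-26906661 had 8, 12 and 19, and 28 in control. The region chr7:26723699-26727693 had 7, 14 and 16, and 26 in control. The ratios of shMETTL3 over shcontrol were 0.295 (0.0839 to 0.854), 0.373 (0.141 to 0.891) and 0.387 (0.135 to 0.994). For shMETTL14 they were 0.511 (0.224 to 1.15), 0.372 (0.165 to 0.808) and 0.516 (0.233 to 1.13). All 3 partners thus took a smaller share of PETs to HOXA in both knockdowns, on small counts, and 1 of the 3 intervals lay below 1 in shMETTL14. Their contacts with all other places were also low, with ratios of 0.413, 0.563 and 0.253 in shMETTL3 and 0.511, 0.804 and 0.674 in shMETTL14, all with intervals that include 1. For shcontrol over control the first of them had 0.512 (0.268 to 0.922) and the others had intervals that include 1. In that first region, called loops use the anchor chr7:26896275-26898022 in shcontrol and the wider chr7:26894691-26899862 in control. The ratio of 0.512 is not scaled to covered length, so it is not read as fewer contacts in shcontrol. A farther region, chr7:26232307-26246784, lies 883 kb beyond the window and was chosen after its values were seen. It had 4, 5 and 9 PETs to HOXA in the senescent libraries and 32 in control. Its anchor in the called loops of shcontrol, chr7:26235209-26244472, is narrower than that of control, which spans the whole region.

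Among outside contacts of HOXA, the knockdowns were low in the long ones. Contacts of 200 kb or more had 77 PETs in shMETTL3, 134 in shMETTL14 and 135 in shcontrol, ratios of 0.505 (0.376 to 0.673) and 0.585 (0.457 to 0.749). Contacts of under 200 kb had 21, 32 and 8 PETs, ratios of 2.32 (0.988 to 6.06) and 2.36 (1.06 to 5.92). These short contacts stood above shcontrol in both knockdowns on few PETs, with an interval above 1 in shMETTL14. An example is chr7:27084035-27088607, 41.4 kb beyond the low end of HOXA and chosen after its values were seen. It had 11 and 18 PETs to HOXA in shMETTL3 and shMETTL14, and 4 in shcontrol. At HOXB the ratios of both ranges were below 1 in each knockdown. In shMETTL3, contacts of under 200 kb had a ratio of 0.875 (0.734 to 1.04) over shcontrol and longer ones 0.678 (0.551 to 0.833). In shMETTL14 the ratios were 0.659 (0.556 to 0.781) and 0.711 (0.592 to 0.855).

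HOXB's partners crowded into the 100 kb beyond its low end, where the next protein-coding gene is SKAP1, an adaptor known from T cells. That step held 259, 294 and 262 outside PETs in shMETTL3, shMETTL14 and shcontrol, and 19 in control. The region chr17:46566970-46579424, 20.6 kb beyond the window, had 118 PETs to HOXB in shMETTL3, 124 in shMETTL14, 101 in shcontrol and 8 in control. Its ratios over shcontrol were 1.03 (0.786 to 1.36) in shMETTL3 and 0.724 (0.552 to 0.951) in shMETTL14. The region chr17:46557990-46566149, 33.9 kb beyond, had 81, 113 and 115 PETs, and 8 in control, with ratios of 0.623 (0.463 to 0.835) and 0.579 (0.443 to 0.758). In shMETTL3 the interval of the nearer partner thus includes 1 and that of the next lies below it, and the difference between them was not tested. Another partner, chr17:46312624-46325422, lies 275 kb beyond the window. It had 35, 80 and 66 PETs to HOXB, and 1 in control, with ratios of 0.469 (0.302 to 0.717) and 0.715 (0.509 to 1.01). To all other places the region at 20.6 kb had ratios of 0.934 (0.711 to 1.23) in shMETTL3 and 0.628 (0.478 to 0.824) in shMETTL14, and the region at 33.9 kb 0.757 (0.570 to 1.005) and 0.659 (0.506 to 0.859). The region at 275 kb had 0.971 (0.622 to 1.52) and 1.27 (0.864 to 1.88). The contacts of all 3 partners elsewhere thus had ratios whose intervals overlap those to HOXB. These 3 partners held 54.8%, 56.9% and 58.6% of outside PETs of HOXB in the senescent libraries. The 3 strongest partners of HOXA held 28.6%, 27.7% and 35.0% of its own.

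**Figure D5:**
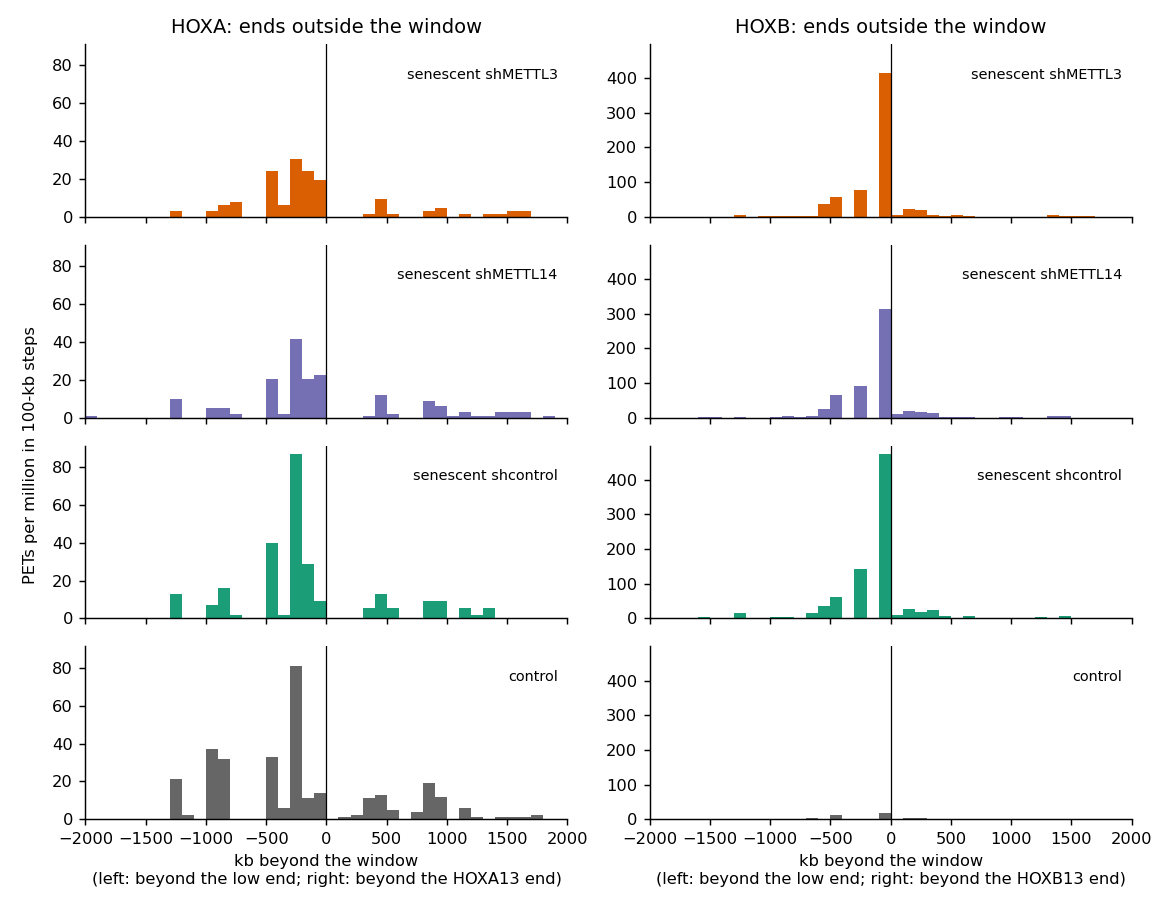
Outside ends of HOXA (left) and HOXB (right) contacts by distance beyond the window in kb, in 100-kb steps, as PETs per 1000000 (scales differ between the clusters); negative distances lie beyond the low end. HOXA contacts peak between 200 and 300 kb and were lower there in both knockdowns, and HOXB contacts peak within 100 kb. Control has more HOXA ends 800 to 1000 kb away. Of these, 21 PETs lie at chr7:26219270-26231033, where the senescent set has no anchor, so the difference is partly set by the anchor sets.

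Called loops were taken as interactions of at least 4 PETs whose false discovery rate in the deposited files was 0.01 or less. They numbered 9 in shMETTL3, 12 in shMETTL14, 21 in shcontrol and 20 in control at HOXA. At HOXB they numbered 21, 25 and 23 in the senescent libraries and 0 in control. Over the whole genome the libraries had 14883, 20711, 13388 and 25047 called loops in the same order. Thinned to 552029 PETs per library, with false discovery rates kept as deposited, HOXA had 8, 10, 21 and 15 and HOXB 19, 18, 23 and 0. HOXA thus had fewer called loops in both knockdowns than in shcontrol before and after thinning. These counts have no test, and the rates were not recomputed for the thinned libraries. The longest HOXA loops were those of control, at 1291, 1258 and 1054 kb. Those of shcontrol reached 939 and 924 kb, from chr7:26235209-26244472 to anchors 7 and 5. No called HOXA loop of either knockdown was longer than 464 kb. The 3 longest HOXB loops of each senescent library spanned 532 to 592 kb in shMETTL3, 582 to 642 kb in shMETTL14 and 556 to 614 kb in shcontrol. All but 1 of these 9 ran beyond the low end of HOXB.

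HOXC and HOXD were close to empty, although their surroundings were not. The single senescent anchor of HOXC, chr12:54392807-54395065, had 4 PETs in shMETTL3, 3 in shMETTL14 and 1 in shcontrol. The 2 control anchors, at chr12:54398066-54400954 and chr12:54423590-54425882, had 3 PETs and 1. These counts separate no pair of libraries, and the interval of shMETTL3 over shcontrol runs from 0.350 to 174. The flank of HOXC beyond HOXC13 held 424, 702 and 435 PETs over 1 Mb in the senescent libraries and 1174 in control. The flanks of HOXD held 36, 45 and 38 PETs beyond HOXD13 and 59, 89 and 52 beyond HOXD1, with 85 and 113 in control. The files list only interactions between called anchors, so the empty HOXD window says that no anchor there was listed, not that HOXD makes no contact.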

How the data were processed

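H3K27ac HiChIP of IMR90 cells was measured in 4 libraries, 1 per group. Per the submitters' processing notes, reads were handled with HiC-Pro 3.1.0 on hg19. The interaction caller was not given in the sources used here. The deposited tables list anchor pairs with a raw count of PETs, not normalized. The last of 8 columns was read as the deposited false discovery rate, a q-value. Spans run from 5 kb to just under 2000 kb between anchor midpoints, and positions are counted from 1.

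The members, named anchors and tests were chosen with earlier results of these data known. Named anchors were, per cluster, the 2 with most PETs, the 3 highest and 3 lowest ratios with at least 50 PETs, the 3 strongest partners and inside pairs, and the 3 longest called loops. Ratios of PET shares carry exact conditional binomial 95% intervals, and shares exact Clopper-Pearson ones (scipy 1.17.1, Python 3.11.15). Anchors of both sets that overlap by at least 1 bp were merged into 79742 regions, and 100-kb tiles with at least 50 PETs gave the background. A log2 ratio used a pseudocount of 1 per 1000000. Ratios over interactions of at least 2 PETs, of at least 20 kb, called or between shared regions were scaled to the PETs under that limit. Scripts were tested on simulated data. Alternatives were TMM scaling (edgeR 4.0.16), covered length, span, PET and false discovery rate minimums, thinning (seed 1) and shared regions only, the last for single regions chosen after seeing the data.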

Additional observations from a re-analysis of the deposited data

How the results depend on the processing

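No paired analysis was possible because each group is 1 library. For the same reason no replicate could be left out. Of 65 recomputed cluster ratios, 62 kept an interval on the same side of 1 or still including it, among them every knockdown ratio over shcontrol at HOXA and HOXB under the alternatives run. TMM scaling shifted shcontrol over control by -0.10 on the log2 scale. Some ratios whose interval includes 1 changed direction within it: HOXA shcontrol over control to 0.930 for called interactions and 0.924 with both ends in shared regions, HOXC shcontrol over control to 1.38 per covered kb, and HOXA shMETTL14 over shMETTL3 to 1.01 for called interactions. The called and shared-region ratios are scaled to the PETs kept by the setting, so they differ from the main ratios in scale as well as in contacts. The other 3 ratios are of shcontrol over control. HOXA became 1.78 per covered kb and 0.744 for spans of at least 20 kb, and HOXB 1.55, with an interval that includes 1, when both ends lay in shared regions. Of the 4 regions passing as higher, 3 without a control anchor, 1 was left per covered kb and 1 with shared regions only, and with no minimum of PETs 1 was called lower. For spans of at least 20 kb the inside share was 38.4%, 31.4% and 35.9% at HOXA in shMETTL3, shMETTL14 and shcontrol, and 43.6% in control, which turns the order of shcontrol and control. At HOXB it was 30.5%, 27.9%, 31.4% and, in control, 2%. With both ends in shared regions it was 65.2% in shcontrol at HOXA and 0% in all 4 libraries at HOXB, which then has 1 region. With at least 2 PETs the share beyond the low end was 96.2%, 88.1%, 100% and, in control, 82.6% at HOXA, and 93.6%, 91.2%, 92.0% and 100% at HOXB. The share of HOXA ends in segments 3 and 4 of control was 87.4% when anchor length was shared out and 99.8% for spans of at least 20 kb. At a false discovery rate of at most 0.05, HOXB in control had 2 called loops. Beyond what each setting leaves out by construction, the cause was not tested. Depth limits HOXC, HOXA anchor 8 and contacts of under 200 kb at HOXA, all with fewer than 35 PETs per library.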
